A study of Vulpes lagopus with 12 samples.

Results

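Mitochondrial ribosomal proteins were examined across the 12 arrays of an Arctic fox series, 11 of fox blood RNA and 1 titled as a canine control. The members were every probe set whose only gene symbol in the probe annotation began with MRPL or MRPS and a number. This gave 162 of the 42924 probe sets tested and 73 of the 15115 genes read by a single symbol. They comprised 49 genes of the large subunit and 24 of the small subunit, counting MRPS18A and MRPS30 with the large subunit, where their proteins sit. The 24 include MRPS36 by its symbol, although its protein is now placed outside the ribosome. The fox RefSeq gene table listed 77 such symbols, of which 72 had a member probe set. MRPL44, MRPL51, MRPS6, MRPS17 and MRPS24 had none, and MRPL50 was measured but was not listed there. A further probe set carrying MRPS22 together with a second symbol was left out.

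Mitochondria keep their own ribosome, which translates the few membrane subunits of oxidative phosphorylation that are encoded by mitochondrial DNA. All of its proteins are encoded in the nucleus, made in the cytosol and imported. Some descend from bacterial ribosomal proteins, and others were added during the evolution of mitochondria. In blood, mature mammalian red cells lack mitochondria, while lymphocytes, monocytes and platelets carry them and neutrophils hold few.

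RNA came from blood of Arctic foxes (Vulpes lagopus), collected in RNA-stabilising tubes and hybridised to the Affymetrix Canine Genome 2.0 array, which carries dog probes. A total of 11 arrays were of foxes, numbered 1 to 11 as the series lists them, and 1 array was a canine control by its title. Its organism and tissue labels also read Vulpes lagopus and blood, and the sources used here do not describe its RNA further. The design statement names polychlorinated biphenyls (PCBs), a group of persistent industrial pollutants, and mercury. No exposure, age, sex or treatment of a single fox was used, since the labels gave none by which to group them, and all 11 form 1 group. The labels do not say that the 11 samples came from 11 animals, so p-values measure only the spread between these samples, which may be partly technical.

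All values are log2 RMA values, a background-corrected, quantile-normalized summary per probe set. Array medians were 7.06 to 7.17 for foxes, with the control lower at 6.85. Precision is limited by the number of arrays, with a single control. Neutrophil markers (5 of 6 fixed genes measured) averaged 10.08 to 12.76 in the foxes and 7.03 on the control. Platelet markers (4 of 5) averaged 7.94 to 10.06 and 6.57, B cell markers (4 of 5) 6.46 to 6.95 and 5.83, and erythroid markers (4 of 8) 7.76 to 9.15 and 7.26. T cell markers (6 of 6) averaged 8.23 to 9.42 and 8.39, so that the control lay within the foxes for this list, and among the erythroid markers HEMGN was higher on it by 3.32. Liver markers (6 of 6) averaged 6.39 to 6.71 in the foxes and 13.66 on the control, and gut markers (5 of 6) 6.03 to 6.29 and 12.58, each measured marker of both lists being called higher. Skeletal and heart muscle markers (5 of 6) averaged 6.80 to 7.24 and 10.86, with MYH2, ACTA1 and MYL2 called higher, TNNT2 called lower (−0.67) and MYH7 not called (−0.50). Foxes 9, 10 and 11 stood apart on an array quality measure, the GAPDH 3′ minus middle difference, which was 0.54, 0.42 and 1.08 there, between 2.56 and 3.19 in foxes 1 to 8, and −0.08 on the control.

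The first comparison set the control array against the 11 foxes and asked how far mitochondrial ribosomal protein transcripts on it departed from those of fox blood. Most members were higher on the control array. By limma with Benjamini-Hochberg adjustment over all probe sets, 100 of the 162 member probe sets (61.7%) were called higher on the control, against 18.9% of all probe sets. A further 18 (11.1%) were called lower, against 42.1% of all probe sets, and 44 were not called. Differences ran from −1.82 to 6.08 with a median of 1.37, while the median over all probe sets was −0.46. The control value lay outside all 11 foxes for 133 members (82.1%), and for 77% of all probe sets. Fewer cells of a type and less RNA per cell cannot be told apart in such bulk samples. Liver and gut markers and 3 muscle markers were also high on the control. Its GAPDH 3′ minus middle difference was −0.08, against 0.42 to 3.19 in the foxes. The array carries dog probes, and the control is canine by its title only. Tissue, RNA quality and probe match cannot be told apart here, and their part in these differences was not tested.

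**Figure D1:**
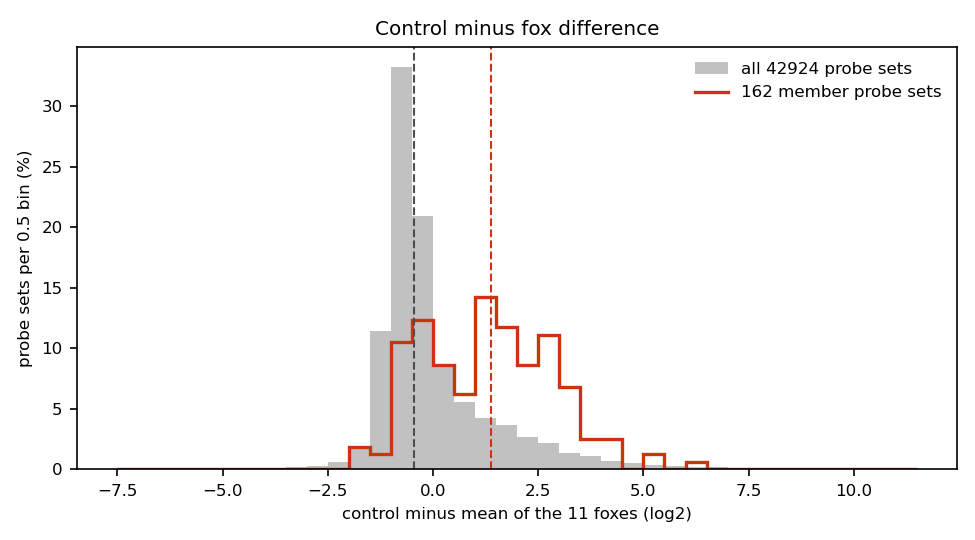
The histogram shows the log2 difference of the control array from the mean of the 11 foxes (x axis, bins of 0.5) as the percentage of probe sets per bin (y axis), for all 42924 probe sets in grey and for the 162 members as a red line, with dashed lines at the medians. All probe sets peak just below 0 with a median of −0.46, and the members spread above it with a median of 1.37.

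Where a log2 difference of at least 1 was also required, 94 members (58%) were higher and 5 (3.09%) were lower, against 15.5% and 12.1% of all probe sets. After a second quantile normalization of the 12 arrays, 90 members (55.6%) were higher and 9 (5.56%) lower, against 18.1% and 29.5%. With each array centred on its median, 106 members (65.4%) were higher and 7 (4.32%) lower, against 21.8% and 23.1%. Without foxes 9, 10 and 11, 109 members (67.3%) were higher and 19 (11.7%) lower, against 22.9% and 49.1%. The share of higher calls among the members exceeded that of all probe sets under each of these settings, whereas the count of lower calls shrank under both rescalings.

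Read by gene, taking for each gene the probe set of highest mean, 45 of 73 genes (61.6%) were called higher on the control and 7 (9.59%) lower, against 18.5% and 44.6% of all genes. The median gene difference was 1.56, beside −0.53 over all genes. In the large subunit 32 of 49 genes were higher, 3 were lower and 14 were not called, with a median difference of 1.58. In the small subunit 13 of 24 were higher, 4 lower and 7 not called, with a median of 1.26. Among the 44 genes whose proteins have a bacterial counterpart, 30 were higher and 2 lower, with a median of 1.67. Among the 28 genes of mitochondria-specific proteins, 15 were higher and 5 lower, with a median of 0.90, and MRPL55 was counted in neither class. Without MRPS36, a choice made after seeing the data, 12 of 23 small-subunit genes were higher (median 1.26) and 14 of 27 mitochondria-specific genes (median 0.74). Differences between these lists were not tested.

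**Figure D2:**
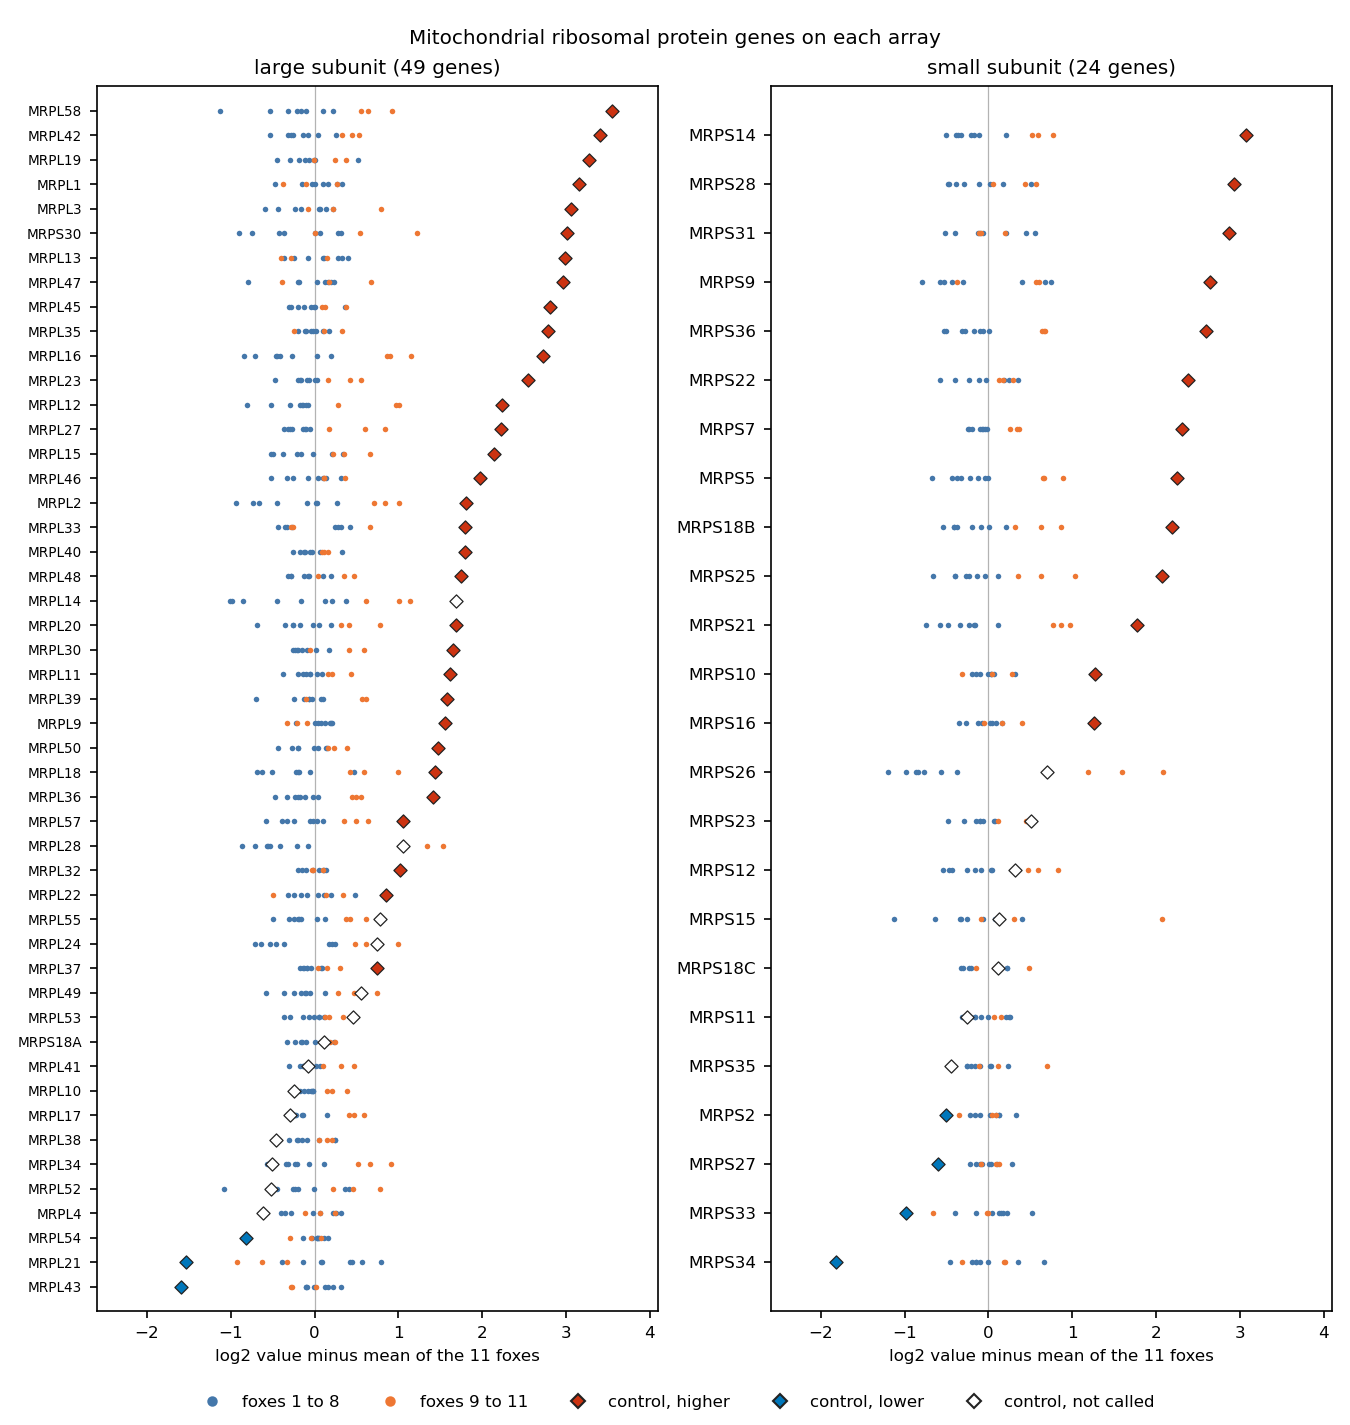
Each row is a mitochondrial ribosomal protein gene, read by 1 probe set, with its log2 value minus the mean of the 11 foxes on the x axis, for foxes 1 to 8 (blue points), foxes 9 to 11 (orange points) and the control array (diamonds, filled red where called higher, filled blue where called lower, open where not called). The control diamonds spread from −1.82 (MRPS34) to 3.55 (MRPL58), and in many rows the orange points lie to the right of the blue ones.

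The 8 genes with the largest positive differences belonged to both subunits. They were picked among genes called with the control outside all foxes, so that position follows from the choice. MRPL58, a peptidyl-tRNA hydrolase built into the large subunit that can release stalled chains, ran from 7.96 to 10.01 in the foxes with a median of 8.98, and stood at 12.64 on the control. MRPL42, a mitochondria-specific protein, ran from 7.15 to 8.22 with a median of 7.61, against 11.10. In both, the control lay above every fox. The differences were 3.55 (SE 0.55) for MRPL58 and 3.41 (SE 0.34) for MRPL42, with limma adjusted p of 0.000241 and 4.84e-06.

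MRPL19, a protein with a bacterial counterpart, ran from 6.18 to 7.14 in the foxes with a median of 6.62, against 9.91 on the control. MRPL1, whose bacterial counterpart forms the mobile stalk beside the tRNA exit site, ran from 8.72 to 9.51 with a median of 9.19, against 12.34. Neither control value overlapped the foxes, and the differences were 3.28 (SE 0.28) and 3.15 (SE 0.26), with limma adjusted p of 1.16e-06 and 8.56e-07. MRPL3, a core protein of the large subunit, ran from 9.30 to 10.68 with a median of 9.93, against 12.95, a difference of 3.07. Its other probe sets differed by 2.95 and 0.76. MRPL13 ran from 7.15 to 7.96 with a median of 7.65, against 10.55, a difference of 2.99. In the small subunit, MRPS14 ran from 7.93 to 9.21 with a median of 8.26, against 11.51, a difference of 3.08. For these 3 genes the control also lay above all 11 foxes, with limma adjusted p between 3.36e-06 and 0.000104.

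MRPS30, a mitochondria-specific protein of the large subunit despite its symbol, ran from 6.62 to 8.73 in the foxes with a median of 7.52, against 10.52 on the control (difference 3.01, SE 0.58, limma adjusted p 0.00101). A second MRPS30 probe set gave the largest difference of any member. It ran from 5.13 to 6.26 in the foxes with a median of 5.71 and stood at 11.82 on the control, a difference of 6.08 (SE 0.31, limma adjusted p 6.2e-09). The last differed by 2.04, so that all 3 MRPS30 probe sets were called higher while their differences covered a wide span.

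A total of 7 genes were called lower on the control array, and there too the control lay outside all 11 foxes. MRPS34, a mitochondria-specific small-subunit protein that is needed for the stability of that subunit, ran from 7.15 to 8.27 with a median of 7.51, against 5.79 (difference −1.82, SE 0.32, limma adjusted p 0.000535). MRPL43 ran from 9.02 to 9.62 with a median of 9.29, against 7.71, a difference of −1.59. MRPL21 ran from 12.22 to 13.93 with a median of 13.22, against 11.61, a difference of −1.53 with an adjusted p of 0.0214 by limma. Both MRPL43 and MRPL21 had other probe sets called higher, given further on.

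MRPL54 had a single probe set, from 7.50 to 7.95 in the foxes with a median of 7.83 and at 6.97 on the control, a difference of −0.82. MRPS33 ran from 7.38 to 8.56 with a median of 8.09, against 7.06, a difference of −0.99. MRPS27, a small-subunit protein with RNA-binding pentatricopeptide repeats, ran from 6.81 to 7.30 with a median of 7.03, against 6.42, a difference of −0.61. Its 3 probe sets were all called lower, at −0.63, −1.11 and −0.61, the only gene with several probe sets for which this held. MRPS2, a core protein of the small subunit, ran from 8.51 to 9.19 with a median of 8.91, against 8.35, a difference of −0.51 with a limma adjusted p of 0.045. The MRPS2 call was lost on leaving out any 1 of foxes 4 to 10 (adjusted p 0.0514 to 0.0609), and with arrays centred (−0.24, adjusted p 0.302). After centring, the MRPL21 (−1.27), MRPS33 (−0.72) and MRPS27 (−0.34) differences no longer passed either, at adjusted p of 0.0581, 0.0583 and 0.114. Nor did they after a second quantile normalization, at −2.53, −0.79 and −0.31 with adjusted p of 0.0636, 0.0615 and 0.139, and MRPL21 was not called by limma with trend and robust settings (adjusted p 0.0674).

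Further genes were named whatever their values. MRPL12, which forms the factor-recruiting stalk of the large subunit and has also been reported to bind the mitochondrial RNA polymerase, ran from 5.72 to 7.53 with a median of 6.39, against 8.76, a difference of 2.24 (SE 0.53, limma adjusted p 0.00377). Its other probe set differed by 0.04 (adjusted p 0.881). MRPL11, at the base of that stalk, ran from 7.52 to 8.33 with a median of 7.84, against 9.51, a difference of 1.61 (SE 0.23, adjusted p 0.000106). MRPL45, which lies near the exit of the nascent-chain tunnel and helps hold the ribosome at the inner membrane, ran from 8.03 to 8.70 with a median of 8.33, against 11.14. That difference was 2.81 (SE 0.23, adjusted p 7.87e-07), while the second MRPL45 probe set differed by 0.20 and was not called.

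In the small subunit, MRPS7, a protein of its head, ran from 7.59 to 8.20 with a median of 7.77, against 10.15, a difference of 2.31 (SE 0.23, limma adjusted p 4.46e-06). MRPS12, the counterpart of a bacterial protein at the decoding centre, ran from 8.42 to 9.80 with a median of 8.88, and its control value of 9.29 lay within that range. The difference of 0.32 was not called (adjusted p 0.54), turned to −0.17 after a second quantile normalization (adjusted p 0.621), and was 0.55 with an adjusted p of 0.0481 without foxes 9, 10 and 11.

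The 3 paralogs of a bacterial small-subunit protein, MRPS18A, MRPS18B and MRPS18C, differed between probe sets. MRPS18B ran from 7.90 to 9.30 with a median of 8.35, against 10.62, a difference of 2.19 (SE 0.44, limma adjusted p 0.00143), and its other probe sets were also called higher. MRPS18A, whose protein sits in the large subunit, ran from 9.34 to 9.91 with a median of 9.67, against 9.78 within that range. Its difference of 0.11 was not called and turned to −0.63 after a second quantile normalization (adjusted p 0.0307), whereas its other probe sets were higher by 1.09 and 1.20. MRPS18C ran from 6.17 to 6.98 with a median of 6.57, against 6.61, and only 1 of its 3 probe sets was called (difference 3.11, adjusted p 0.000113).

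The second question was how far the probe sets of a gene went together. A gene had between 1 and 5 probe sets, and 58 genes had several. All probe sets were called higher for 28 of these genes and all lower for 1. Some were higher and the rest not called for 13, some lower and the rest not called for 2, and none was called for 7. The remaining 7 genes had probe sets called in opposite directions. The differences of a gene's probe sets spanned a median of 1.07, and at most 5.11, in MRPS36. No matching counts or spans over all genes with several probe sets are given here. Whether those of the members are usual on this array therefore cannot be read from them.

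MRPS36 was first described as a ribosomal protein and is now known as a subunit of the oxoglutarate dehydrogenase complex of the citric acid cycle. Its probe sets differed by 4.50, 2.60 and −0.61, all of them called by limma. MRPL21 probe sets differed by 2.83, −0.74, −1.06 and −1.53, and MRPL43 probe sets by 1.64, 1.41 and −1.59. MRPS33 had 1 probe set higher by 1.07, 3 lower by 0.89 to 0.99 and 1 not called at 0.30. The direction read for MRPS36, MRPL21, MRPL43 or MRPS33 thus depends on which probe set stands for the gene.

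The remaining opposite pairs were in the large subunit. MRPL2, a core protein near the peptidyl transferase centre, differed by 1.81 and −0.58. MRPL33 differed by 1.80 and −0.46, with another probe set at −0.56 not called, and MRPL57 by 1.06 and −0.77. Each of these 3 genes was higher on its probe set of highest mean, and the direction read for them depends on that choice as well. By the mean of a gene's probe sets, MRPL2, MRPL33 and MRPL57 differed by 0.61, 0.26 and 0.15. Probe sets ending in _s_at, which can match several transcripts, were called higher in 50 of 72 members (69.4%) and lower in 3 (4.17%), against 19.9% and 39.2% of all probe sets with that ending. Those ending in _at, designed to match a single transcript, were higher in 40 of 71 (56.3%) and lower in 14 (19.7%), against 18.1% and 44.2%. Those ending in _a_at were higher in 7 of 9 and lower in 0, against 36.5% and 19.3%, and those ending in _x_at higher in 3 of 10 and lower in 1, against 15.1% and 37.4%. Median member differences were 1.49, 1.09, 2.64 and 0.20 in that order, beside −0.40, −0.49, 0.26 and −0.40 over all probe sets of each ending. Differences between endings were not tested.

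**Figure D3:**
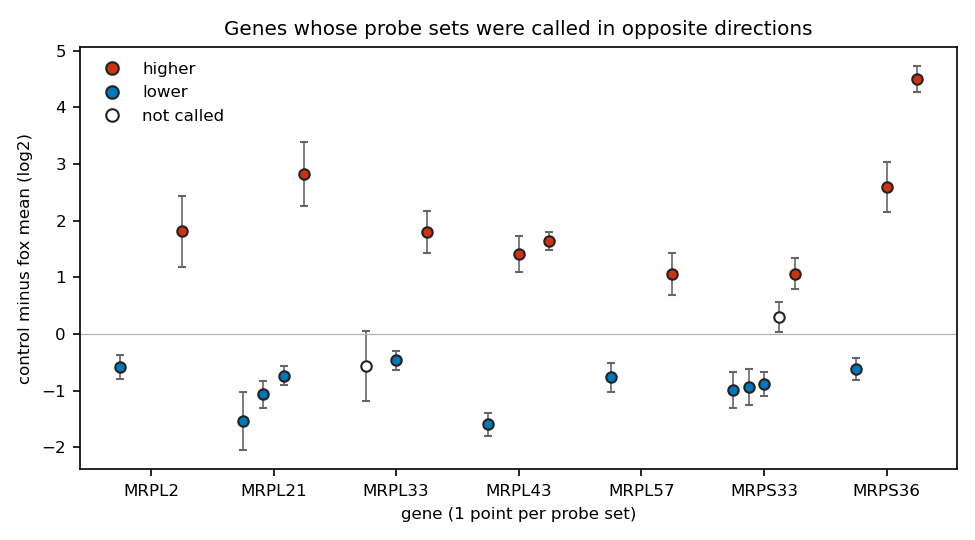
For the 7 genes whose probe sets were called in opposite directions (x axis), each point is 1 probe set, with the log2 difference of the control from the fox mean on the y axis, the standard error of the limma fit as bars, and red, blue or open points for higher, lower or not called. MRPS36 spans the widest range, from −0.61 to 4.50.

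The third description was the spread between foxes, for which the labels gave no grouping. Over the 11 foxes the SD reached 0.5 in 27 member probe sets (16.7%), close to the 14.8% of all probe sets. The median SD was 0.28 for the members and 0.22 for all probe sets. Within foxes 1 to 8 only 3 members (1.85%) reached that SD, against 7% of all probe sets. These were MRPL14 at 0.56, MRPS26 at 0.59 and 1 probe set of MRPS9 at 0.61, named here after their values were seen.

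Foxes 9, 10 and 11 lay apart from the others in many members. Their values all lay above those of foxes 1 to 8 in 57 member probe sets (35.2%), against 12.6% of all probe sets, and all below in 6 (3.7%), against 14.6%. By gene, 32 of 73 (43.8%) lay above, against 14.2% of all genes, and 0 lay below, against 14.6%. The genes that lay above comprised 22 of 49 in the large subunit and 10 of 24 in the small subunit. They comprised 20 of 44 with a bacterial counterpart and 11 of 28 without. The median difference between the mean of foxes 9 to 11 and that of foxes 1 to 8 was 0.26 over member probe sets, and −0.11 over all probe sets.

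Array by array, the median deviation of the 162 members from their fox means ran from −0.15 to 0.00136 in foxes 1 to 8. It was 0.14 in fox 9, 0.17 in fox 10, 0.19 in fox 11 and 1.37 on the control. Between 44 and 81 members lay above their fox mean in foxes 1 to 8, between 110 and 113 in foxes 9 to 11, and 120 on the control. The median of all probe sets lay between −0.10 and 0.04 on every fox array and was lowest in foxes 9 to 11. Quantile normalization keeps array medians close, so little movement could show there.

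The same 3 foxes differed in markers of blood cells as well as in the GAPDH measure. The T cell markers averaged 9.13 to 9.42 in them, against 8.23 to 8.69 in foxes 1 to 8, and the platelet markers averaged 9.65 to 10.06, against 7.94 to 9.43. Both lists were higher there without overlap. Neutrophil markers averaged 11.31 to 12.76, against 10.08 to 11.89, and erythroid markers 8.54 to 8.93, against 7.76 to 9.15. B cell markers averaged 6.46 to 6.71, against 6.68 to 6.95, and these 3 lists overlapped. The part of cell types or RNA quality in the member values was not tested, and foxes 9 to 11 were not tested against the others.

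**Figure D4:**
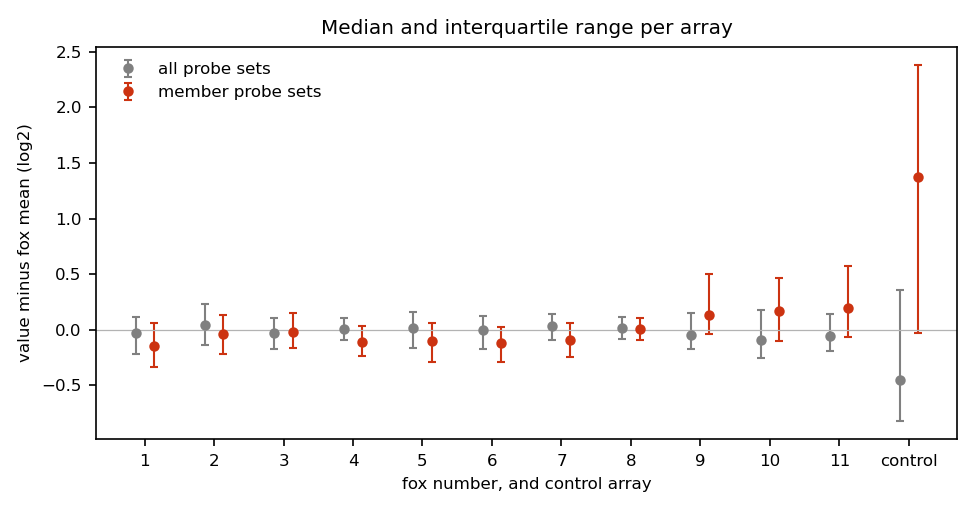
Points give the median and bars the interquartile range of the log2 value minus the fox mean (y axis) on each of the 12 arrays (x axis), for all probe sets in grey and the 162 members in red. The member medians are at or below 0.00136 in foxes 1 to 8, between 0.14 and 0.19 in foxes 9 to 11 and at 1.37 on the control, where all probe sets have a median of −0.46.

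The 8 genes with the largest SD over the foxes were led by MRPS26, a mitochondria-specific small-subunit protein. An SD over all 11 foxes grows where foxes 9 to 11 differ from the rest. Their separation in these 8 genes is thus favoured by the choice. MRPS26 ran from 8.36 to 10.27 in foxes 1 to 8, with 10.27 in fox 8, and stood at 11.64, 11.15 and 10.74 in foxes 9, 10 and 11, an SD of 1.17 over all 11. MRPL28, a protein with a bacterial counterpart, ran from 8.07 to 8.86 in foxes 1 to 8 and stood at 10.47, 9.98 and 10.27 in the other foxes (SD 0.87). On these probe sets foxes 9 to 11 lay above all the rest in both genes. That separation held in 1 of 2 MRPS26 probe sets and in 2 of 3 MRPL28 probe sets. The control values, 10.25 for MRPS26 and 9.99 for MRPL28, were within the fox range and not called by limma. Other probe sets differed by −0.17 for MRPS26, and by 0.23 and 1.99 for MRPL28. Without foxes 9, 10 and 11 the MRPS26 difference moved from 0.70 to 1.31 (adjusted p 0.0461) and the MRPL28 difference from 1.05 to 1.54 (adjusted p 0.000415).

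MRPS15, the counterpart of a bacterial protein that binds small-subunit ribosomal RNA early in assembly, differed from this pattern. It ran from 8.02 to 9.55 in foxes 1 to 8 and stood at 9.46, 11.22 and 9.07 in foxes 9, 10 and 11 (SD 0.81), so that fox 10 alone lay above the others. Its control value of 9.28 gave a difference of 0.13 (limma adjusted p 0.895), which turned to −0.34 after a second quantile normalization. MRPL14 ran from 6.67 to 8.06 in foxes 1 to 8 and stood at 8.69, 8.82 and 8.30 in the others (SD 0.76). Its control value of 9.38 lay above every fox with a difference of 1.69 that was not called (adjusted p 0.0587). Without fox 9 the difference was 1.79 and called (adjusted p 0.0386), and likewise without fox 10 (1.81, adjusted p 0.0307).

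The other 4 of these genes were called higher on the control. MRPL16, which lies near the peptidyl transferase centre, ran from 7.12 to 8.15 in foxes 1 to 8 and stood at 8.87, 8.83 and 9.11 in foxes 9, 10 and 11, against 10.69 on the control (difference 2.73, limma adjusted p 0.00408). MRPL2 ran from 8.51 to 9.71, with 10.46, 10.15 and 10.28 in those foxes and 11.25 on the control (1.81, adjusted p 0.0255). MRPS21 ran from 8.44 to 9.30, with 10.16, 9.95 and 10.05, and 10.96 (1.77, adjusted p 0.0189). On these probe sets of the 3 genes the order was foxes 1 to 8, then foxes 9 to 11, then the control, with no overlap. The second MRPL16 probe set also had foxes 9 to 11 above foxes 1 to 8, whereas those of MRPL2 and MRPS21 did not. The MRPL2 and MRPS21 calls were lost after a second quantile normalization, which left differences of 0.86 and 0.88 (adjusted p 0.121 and 0.0698). MRPS30 ran from 6.62 to 7.82 in foxes 1 to 8 and stood at 7.52, 8.06 and 8.73 in the others, which overlapped.

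**Figure D5:**
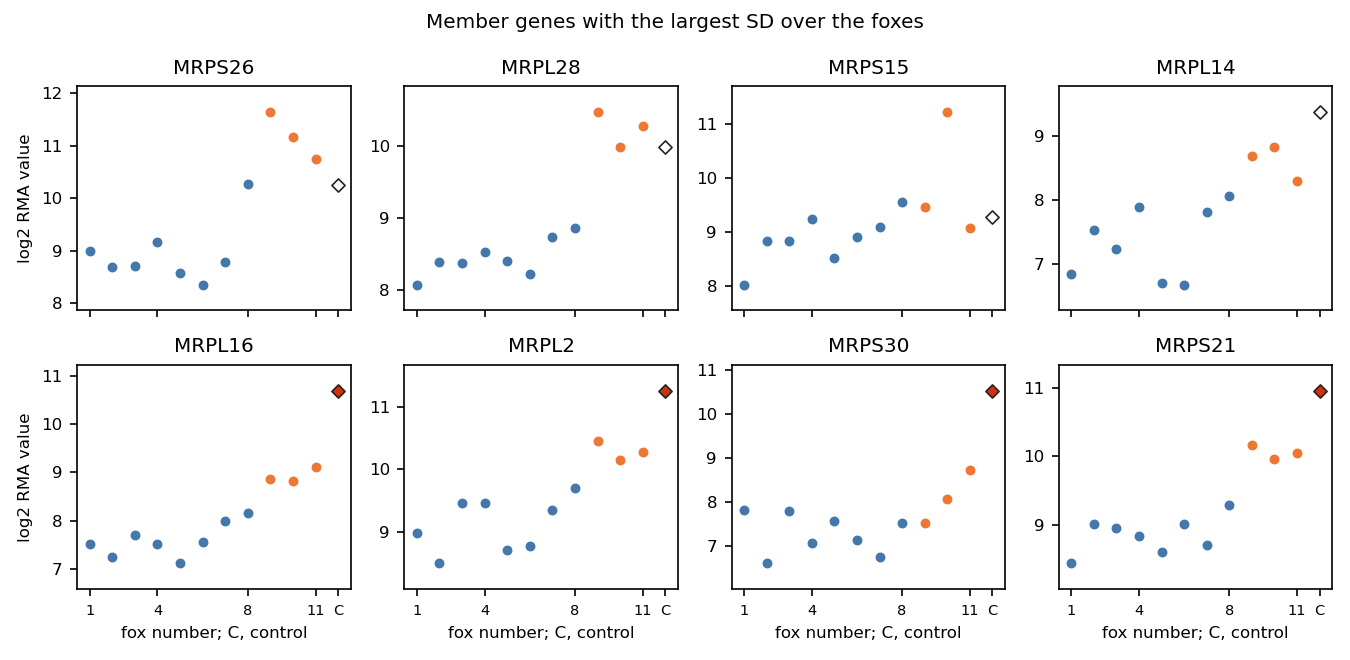
Each panel is 1 of the 8 member genes with the largest SD over the foxes, with the log2 RMA value on the y axis (the axis does not start at 0) and the 11 foxes and the control array (C) on the x axis, in blue for foxes 1 to 8, orange for foxes 9 to 11 and as a diamond for the control, filled where it was called higher. Foxes 9 to 11 lie above all other foxes in every panel except those of MRPS15 and MRPS30, a separation that the choice by SD favours.

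Among all member genes, those nearest to MRPL12 by the median absolute difference of values centred on the fox mean, over the 11 foxes, were MRPL36 (0.13), MRPL30 (0.14) and MRPS7 (0.15). For MRPL12 itself, on its probe set of highest mean, foxes 9, 10 and 11 stood at 7.49, 6.81 and 7.53, above the 5.72 to 6.44 of foxes 1 to 8. Its second probe set overlapped, at 6.05 to 6.53 in foxes 9 to 11 against 6.12 to 6.70. MRPL36 lay above in the same 3 foxes, from 8.91 to 9.02 against at most 8.51, and was higher on the control by 1.41 (SE 0.34, limma adjusted p 0.00392). MRPS7 also lay above, at 8.10 to 8.20 against 7.59 to 7.82, whereas MRPL30 was higher on the control by 1.65 (adjusted p 0.00044) without such a separation of the foxes. The second probe sets of MRPL36 and MRPS7 did not set foxes 9 to 11 above the others, and that of MRPL36 was higher on the control by 5.26. Of the genes with several probe sets, 7 had all of them above in foxes 9 to 11, among them MRPS18B and MRPS14. Conversely, 6 genes had at least 1 probe set below, namely MRPL21, MRPL33, MRPL42, MRPL47, MRPL49 and MRPS27. Neither count has a matching share over all genes here, so neither can be read as particular to the members.

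Other genes of mitochondrial translation were read from lists in the same fit, beside the 18.5% of all genes called higher and the 44.6% called lower. A list of 6 further genes outside the symbol rule held mitoribosome proteins and OXA1L. Their differences ran from −0.92 to 2.52 with a median of 0.44. CHCHD1, of the small subunit, was higher by 2.52 and OXA1L, the insertase that receives nascent chains at the inner membrane, by 2.01, while AURKAIP1 was lower by 0.92. DAP3, a small-subunit GTP-binding protein, differed by 1.04 and was not called. Of 13 translation factors 8 were higher and 3 lower, with a median difference of 1.46. They included LRPPRC (4.83) and SLIRP (3.63), which together stabilise mitochondrial messenger RNAs, and the elongation factors TSFM (2.72) and TUFM (2.33), while GFM1 differed by −1.10.

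The remaining lists concern the making of the ribosome, its charged tRNAs and the transcription of mitochondrial DNA, read beside the same 18.5% higher and 44.6% lower of all genes. Of 22 assembly factors 3 were higher, among them RBFA (1.91), which binds the immature small subunit, and 9 were lower, with a median of −0.37. Of 19 genes of mitochondrial aminoacyl-tRNA synthesis 6 were higher, led by IARS2 (3.07), and 6 lower, with a median of −0.20. Of 12 genes of mitochondrial transcription and its nuclear regulators 3 were higher and 6 lower, with a median of −0.51. TFAM, which packages mitochondrial DNA, was higher by 2.33 and the ETS factor GABPA by 1.13, while NRF1, a regulator of nuclear genes for mitochondria, differed by −0.63 and was called lower. The medians of these 3 lists lay between 0 and the −0.53 of all genes, and no difference between lists was tested.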

How the data were processed

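Per the submitters' processing notes, the authors made the deposited log2 values by RMA with Expression Console (Affymetrix). The sources used here name no version and do not say whether RMA was run on all 12 arrays jointly. No detection call was used here. Of 43035 probe sets, 111 Affymetrix controls were left out. The control was compared with the 11 foxes by limma 3.58.1 (lmFit and eBayes, R 4.3.3) over 42924 probe sets, with Benjamini-Hochberg adjusted p under 0.05. The fit assumes that the 1 control array varies as the foxes do, and the smallest p of an exact permutation test at these sizes is 0.0833. The procedure was also run on simulated data in which the control was drawn with the spread of the foxes. That run therefore could not check the assumption about the control array. A gene was read by its probe set of highest mean over all arrays.

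The members and lists were chosen with earlier results of these data known. Named genes were, of those called with the control outside all foxes, the 8 largest differences each way (7 were lower), the 8 largest SDs, a set named whatever its values (MRPL12, MRPL11, MRPS12, MRPL45, MRPL44, MRPL58, MRPS18A, MRPS18B, MRPS18C, MRPS30, MRPS2, MRPS7, MRPS34, MRPL3), genes with opposite calls, and the 3 nearest to MRPL12. Alternatives were rescaling, filters, other thresholds, other variance settings, probe set choices and leaving out foxes. A list of subunits encoded by mitochondrial DNA matched no probe set, and promoter motifs were not analysed here.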

Additional observations from a re-analysis of the deposited data

How the results depend on the processing

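The count of 100 member probe sets higher on the control became 57 of 87 among probe sets with a high mean and 47 of 80 without _s_at and _x_at probe sets. The 18 lower ones became 9 after quantile normalization again, 7 with arrays centred, 7 of 87 with a high mean, and 5 at a log2 difference of at least 1. The 7 lower genes became 3 with arrays centred, 3 at a difference of at least 1, and 4 by the mean of all probe sets. The median difference of 1.37 became 0.89 after quantile normalization again, 1.64 with arrays centred and 1.25 without _s_at and _x_at probe sets, beside −0.31, −0.19 and −0.46 over all probe sets. The 27 members with an SD of at least 0.5 became 1 at an SD of at least 1, 17 by scaled median absolute deviation and 3 in foxes 1 to 8. Over all 42924 probe sets, 1289 reached an SD of at least 1, and 7% reached 0.5 in foxes 1 to 8. The 57 members above in foxes 9 to 11 became 25 of 80 without _s_at and _x_at probe sets, and the 6 below became 2 with arrays centred. Counts in this paragraph with no share of all probe sets or genes, here or earlier, cannot be set against the whole array. Leaving out each fox in turn gave 98 to 102 probe sets higher and 16 to 19 lower, 45 to 47 genes higher and 6 to 8 lower, and 21 to 29 members with an SD of at least 0.5.

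For the 35 named genes, 626 differences were recomputed under up to 18 alternatives each. Of these 583 kept their direction and side of the threshold, 30 lost the call, 9 gained it and 4 turned. MRPL43 turned to 0.49 by the mean of its probe sets, and MRPS15 (−0.34), MRPS12 (−0.17) and MRPS18A (−0.63) turned after quantile normalization again. In the first case the construction averages probe sets called in opposite directions; for the others the cause was not tested. A total of 18 named genes kept their direction and call in every alternative run for them. Leaving out MRPS36, chosen after seeing the data, left 12 of 23 small-subunit and 14 of 27 mitochondria-specific genes higher. No paired analysis was possible because the labels give no replicate numbers shared by foxes and control, and the control is 1 array. Without detection calls, low values cannot be told apart from background signal.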

Other observations

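Foxes 9, 10 and 11 were also set apart in some other genes of mitochondrial translation, given here as values with no test, beside the 14.2% of all genes that lay above foxes 1 to 8 and the 14.6% that lay below. They lay above foxes 1 to 8 in 2 of the 6 further genes outside the symbol rule, DAP3 (9.94 to 10.32 against 8.22 to 9.48) and OXA1L (10.10 to 10.94 against 8.96 to 9.93). Of 13 translation factors 3 lay above, LRPPRC (7.53 to 8.46 against 5.72 to 6.59), TSFM (10.21 to 10.38 against 8.70 to 9.92) and MTIF3 (9.23 to 9.36 against 8.48 to 8.90). Assembly factors went both ways, with 2 of 22 above and 2 below. MALSU1, which keeps the subunits from joining early, stood at 9.81 to 10.92 against 8.53 to 9.62, while ERAL1, a chaperone of the small-subunit ribosomal RNA, stood at 8.40 to 8.57 against 9.53 to 11.58. Of 19 genes of mitochondrial aminoacyl-tRNA synthesis 2 lay above (HARS2 and KARS1) and 2 below (AARS2 and SARS2), and of 12 genes of mitochondrial transcription and its regulators 1 lay above (YY1). On the control array MALSU1 stood at 7.79 and ERAL1 at 8.38, both below all 11 foxes and neither called by limma.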
